A study of Mus musculus with 18 samples.

Results

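The genes described here code for the inflammasomes and for pyroptosis, the lytic cell death that inflammasomes set off. The members were the 10 genes Nlrp3, Nlrc4, Aim2, Pycard, Casp1, Casp4, Casp8, Gsdmd, Il1b and Il18, chosen by symbol among the 23420 gene symbols counted in the retina. All 10 were found, and 6 of them (Aim2, Pycard, Casp1, Casp8, Gsdmd and Il18) had enough counts to be tested. The study examined how the light-damaged mouse retina responds to TD139, a small-molecule inhibitor of the sugar-binding protein galectin-3. Retinal RNA came from 9 wild-type mice of the albino strain BALB/cJ, aged 8 to 10 weeks and of both sexes, with the sex of single mice not given. The 3 naïve mice are labelled as without light and without treatment. The 3 mice of the vehicle group received DMSO and the 3 of the TD139 group 15 mg/kg TD139 dissolved in DMSO, as daily intraperitoneal injections from the day before the light. Both treated groups were exposed to 15000 lux of white light for 1 h, and their retinas were taken 4 days later. No light-exposed group without injections and no injected group without light was among these mice, so the light and the injections of DMSO cannot be told apart where vehicle mice are set against naïve ones.

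In an inflammasome, a sensor protein such as NLRP3, NLRC4 or AIM2 recognizes a danger signal and, mostly through the adaptor ASC (the product of Pycard), gathers and activates caspase-1. Caspase-1 cleaves the precursors of interleukin-1β and interleukin-18 into their active forms and cleaves gasdermin D, whose freed part forms pores in the cell membrane. Caspase-4 of the mouse, also called caspase-11, responds to bacterial lipopolysaccharide inside the cell and cleaves gasdermin D directly. Caspase-8 starts apoptosis from death receptors, restrains necroptosis, and can also be recruited by inflammasomes. In the retina these proteins are best known from microglia and infiltrating macrophages, and some have been studied in the retinal pigment epithelium. Messenger RNA levels do not show whether any of these proteins was cleaved or active.

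Each mouse had between 26171887 and 30201517 reads counted on genes. A count of 3, taken as the floor of detection, stands for 0.101 to 0.119 CPM (counts scaled to library size and TMM factor) and covers counting error only. Rod photoreceptor genes (Gnat1, Pde6b, Nrl and Sag) summed to between 20783 and 35165 CPM in every mouse. They stood at 20783 to 27734 CPM in the vehicle group, against 33807 to 35165 CPM in naïve and 27447 to 31513 CPM in TD139 mice. TD139 mouse 1 stood apart from the other mice of its group, with a summed level of 9 microglia and macrophage genes of 89.3 CPM against 23.9 and 22.0 CPM. Reads outside genes were 21.3 to 22.8% in TD139, 16.5 to 19.4% in vehicle and 19.1 to 19.9% in naïve mice, and ambiguous reads 0.303 to 0.363%, 0.417 to 0.471% and 0.374 to 0.402%. Their part in the results was not tested. In these bulk samples, fewer cells of a type and less RNA per cell cannot be told apart.

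The promoters of Casp1, Casp4 and Pycard are shown because these 3 genes had the highest ratios of vehicle to naïve mice among the members. Casp1 and Casp4 lie next to each other on the same strand of chromosome 9. Casp1 (ENSMUSG00000025888.5) occupies 5298517 to 5307265 of GRCm38, and Casp4 (ENSMUSG00000033538.13) starts 1562 bases after its end and runs from 5308828 to 5336783. Pycard (ENSMUSG00000030793.4) lies on the minus strand of chromosome 7, from 127989708 to 127993867. Each sequence below runs from 250 bases before the RefSeq start of transcription through the first 30 transcribed bases, 5′ to 3′ on the strand of the gene, from the RefSeq table for GRCm38.p6. The windows are chr9:5298267-5298546 for Casp1, chr9:5308599-5308878 for the more upstream of 2 Casp4 starts and chr7:127993838-127994117 for Pycard. The base at the start and any match to a searched motif are in capitals.
Casp1: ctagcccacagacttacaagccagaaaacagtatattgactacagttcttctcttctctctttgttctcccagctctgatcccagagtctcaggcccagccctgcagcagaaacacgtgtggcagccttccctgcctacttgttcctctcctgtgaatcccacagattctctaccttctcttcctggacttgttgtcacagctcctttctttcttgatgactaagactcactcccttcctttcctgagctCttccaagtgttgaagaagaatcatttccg
Casp4: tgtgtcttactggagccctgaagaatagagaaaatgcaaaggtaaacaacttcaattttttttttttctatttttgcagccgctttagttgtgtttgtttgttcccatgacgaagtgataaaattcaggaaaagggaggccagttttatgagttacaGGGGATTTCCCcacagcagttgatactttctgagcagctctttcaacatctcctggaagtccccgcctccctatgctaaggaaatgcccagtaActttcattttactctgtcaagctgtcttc
Pycard: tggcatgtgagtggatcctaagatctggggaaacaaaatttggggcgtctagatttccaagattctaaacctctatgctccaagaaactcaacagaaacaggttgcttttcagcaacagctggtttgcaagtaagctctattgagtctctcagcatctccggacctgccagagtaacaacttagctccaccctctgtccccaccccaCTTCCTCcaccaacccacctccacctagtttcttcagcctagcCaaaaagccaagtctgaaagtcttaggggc
5 motifs were searched on both strands of the 300-base promoters in the table. The letters GAGGAAG, of the kind bound by PU.1 and other ETS factors, occurred in 13.6% of all 32851 promoters. Among the members with a promoter in the table, 9 of 10, they occurred for Pycard (in capitals above, on the opposite strand, 43 bases before the start), Aim2 and Nlrp3. The letters GGANTTTCC, an NF-kappaB type site, occurred in 1.25% of promoters and, among the members, at 1 start of Nlrp3. GAAANNGAA (8.56% of promoters), TTCNNNGAA (8.3%) and TGANTCA (7.81%), which resemble sites of interferon regulatory factors, STAT factors and AP-1, were found for no member. The full NF-kappaB consensus, added after the sequences had been seen, occurred in 5.89% of promoters. Among the members it was found for Nlrp3 and for Casp4, where a pair of overlapping matches began 93 and 92 bases before the start (in capitals above). The promoter of Casp1 held no match to any searched motif.

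Light exposure with vehicle was first compared with the naïve state. Casp1 was called higher in vehicle mice and was the member with the largest difference. For each of the 6 tested members every vehicle mouse lay above every naïve mouse, as it did for 16.7% of all 15196 genes tested. The same held for 3 of the 4 untested members, the exception being Nlrc4. Among the 6 tested members, 1 passed an adjusted p-value of 0.05, where 4.91% of all genes were called higher. All 6 were higher at an unadjusted p-value under 0.05, as were 14.4% of all genes. Casp1 and Pycard reached the minimum of counts for testing through the vehicle mice alone, so they had in part to differ, and the counts over tested members are a description. Of the other 4, none was called in the edgeR fit of all 9 mice, where all 4 had an unadjusted p-value under 0.05. Casp8 was called by DESeq2 and in some of the other edgeR fits.

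Casp1, the caspase at the centre of the canonical inflammasome, had 2, 5 and 1 counts in the 3 naïve mice and 56, 44 and 135 counts in the vehicle mice. Each vehicle retina was above all naïve retinas, which had 5 counts or fewer. The mean level was 0.101 ± 0.079 CPM (SD, n = 3) in naïve and 2.70 ± 1.61 CPM in vehicle mice. This naïve mean lies below the floor of detection (0.110 to 0.115 CPM in naïve mice), so the size of the fold change is uncertain. The log2 fold change was 4.69 (SE, the standard error, was 0.85, with an adjusted p of 0.0192 in the edgeR quasi-likelihood test with Benjamini-Hochberg adjustment), past the study's cut-off of 2. Of all genes, 1.24% were both called and past that cut-off upwards. The call was lost without naïve mouse 1, 2 or 3 (adjusted p = 0.0640, 0.0730 and 0.0620 in edgeR) and without vehicle mouse 3 (0.0630), while the fold change ran from 4.08 without vehicle mouse 3 to 5.48 without naïve mouse 2. Without naïve mouse 2, only 1 gene in the whole table was called higher, against 746 with all mice.

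Casp4, the sensor of cytosolic lipopolysaccharide, had 1, 0 and 1 counts in naïve mice and 4, 6 and 32 counts in vehicle mice. The last value came from vehicle mouse 3, which held 32 of the 42 counts of its group. The ratio of summed counts scaled for depth was 19.5, with an exact 95% counting interval of 5.07 to 166 that leaves out the spread between mice. Casp4 was too low to be tested after the filter. In a fit without the filter its log2 fold change was 4.03 (SE 1.23, adjusted p = 0.0731 in edgeR), so it did not pass. Casp8, the initiator of death receptor apoptosis, had 34, 37 and 44 counts in naïve mice and 66, 88 and 145 in vehicle mice. Its log2 fold change was 1.26 (SE 0.39, adjusted p = 0.0694 in edgeR). It did not pass in that fit, whereas DESeq2 gave an adjusted p of 0.0273, and edgeR gave 0.0400 in the fit of the 2 groups alone, 0.0481 with a correction for transcript length and GC content and 0.0254 without TD139 mouse 1.

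Pycard, which codes for the adaptor ASC, had 3, 16 and 1 counts in naïve mice and 38, 38 and 84 counts in vehicle mice. Naïve mouse 2 held 16 of the 20 counts of its group, and the groups still did not overlap. The log2 fold change was 2.85 (SE 0.79, adjusted p = 0.0517 in edgeR), just short of the threshold. DESeq2 called it with an adjusted p of 0.00835, and the range over the mice left out in turn was 0.0273 to 0.144 in edgeR. It was 0.0453 in the edgeR fit of the 2 groups alone, 0.0172 with flow cell run 2 only and 0.0328 with the correction for length and GC content. The other edgeR settings gave 0.0502 to 0.131 and did not call it. Without naïve mouse 2 the log2 fold change was 4.54. The annotated Pycard transcripts overlap a gene of the opposite strand, Gm45205, over 485 bases. The library kit keeps strand, but the strand setting of the counting was not given in the sources used here, so reads of that gene cannot be told apart from those of Pycard.

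The sensors gave smaller differences or few counts. Aim2, a sensor of cytosolic double-stranded DNA, had 19, 19 and 28 counts in naïve and 43, 35 and 46 counts in vehicle mice. The groups did not overlap, and its log2 fold change of 0.80 (SE 0.35, adjusted p = 0.159 in edgeR) did not pass. Nlrp3, the sensor that responds to ion fluxes and tissue damage, had 5, 5 and 7 counts in naïve and 9, 8 and 16 counts in vehicle mice. These counts were too few to be tested after the filter, and an exact permutation test of 3 mice against 3 gave a two-sided p of 0.1, the smallest that this design allows. Nlrc4, the sensor that works with NAIP proteins on bacterial flagellin and secretion systems, had no count in any naïve or vehicle mouse. A count of 0 allows up to 3 counts, which is 0.101 to 0.115 CPM in these 6 mice.

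Gsdmd, the pore-forming executor of pyroptosis, had 43, 41 and 27 counts in naïve mice and 66, 76 and 110 in vehicle mice. The groups did not overlap, yet the log2 fold change of 1.06 (SE 0.38, adjusted p = 0.104 in edgeR) did not pass. Il18 was the most abundant member, with 202, 158 and 125 counts in naïve and 239, 255 and 260 in vehicle mice. Its log2 fold change was 0.52 (SE 0.20, adjusted p = 0.118 in edgeR), which did not pass. Il1b, the other cytokine that caspase-1 processes, was close to the floor in all mice. It had 0, 1 and 1 counts in naïve mice and 3, 4 and 6 in vehicle mice, a depth-scaled ratio of 6.03 with an exact 95% counting interval of 1.37 to 55.1. Its messenger RNA rises in activated macrophages. At this depth it stayed at 6 counts or fewer in each of the 9 mice.

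**Figure D1:**
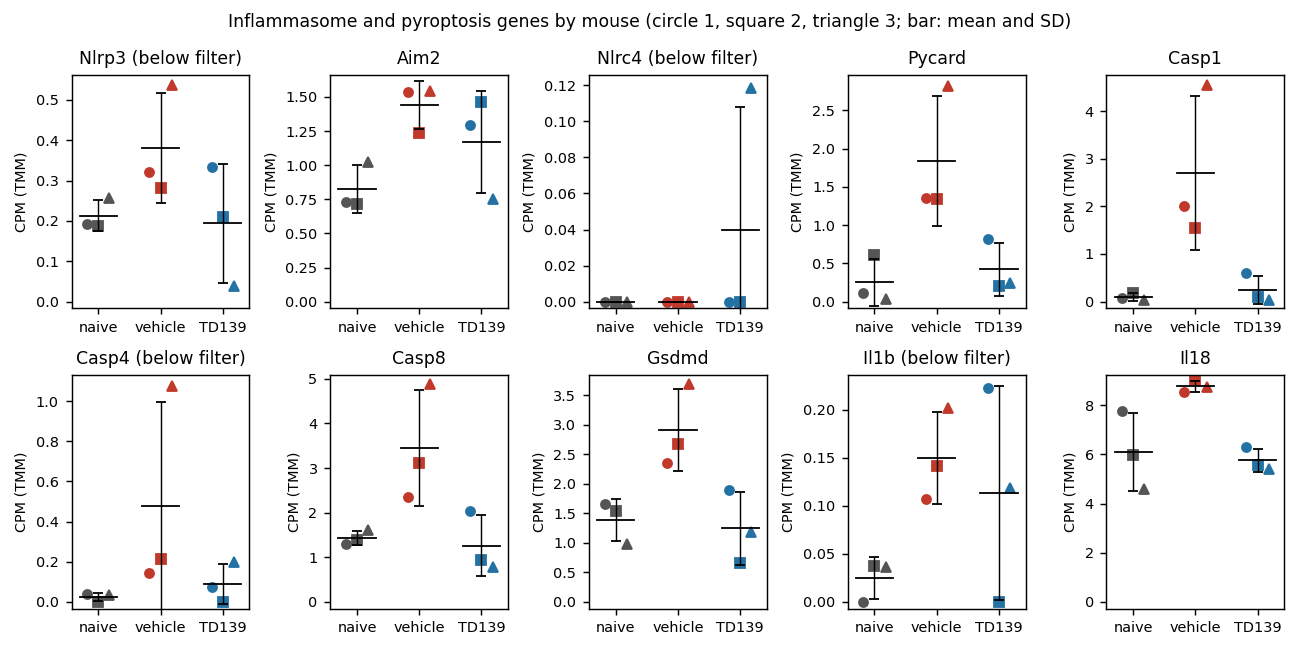
Level of each member in CPM after TMM scaling in the 9 mice, with 1 panel per gene, points for mice 1, 2 and 3 of each group, and the mean with its SD in black. Casp1 lay between 1.55 and 4.54 CPM in vehicle mice and at 0.593 CPM or less in all others, whereas Nlrc4 had counts in TD139 mouse 3 only.

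TD139 mice were then compared with vehicle mice, which are the same 3 vehicle mice as in the first comparison. Casp1, Pycard, Casp8, Gsdmd and Il18 were called lower in TD139 mice, 5 of the 6 tested members, where 16.2% of all genes tested were called lower. For these 5 every TD139 mouse lay below every vehicle mouse, as did 25.4% of all genes. Casp1 and Pycard were also past the cut-off of −2, and 1.53% of all genes were both called and past it downwards. Casp1 and Pycard entered the test through the vehicle mice, where they are high, so these counts too are a description. Of the other 4 tested members, 3 were called lower.

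The TD139 mice had 16, 3 and 1 counts of Casp1, against 44 to 135 in vehicle mice. TD139 mouse 1 held 16 of the 20 counts, of which 14 came from flow cell run 1 and 2 from run 2. The mean level was 0.246 ± 0.303 CPM (SD, n = 3), and the log2 fold change was −3.43 (SE 0.76, adjusted p = 0.00977 in edgeR). Without TD139 mouse 1 it was −5.12 and without vehicle mouse 3 −2.83, and it was −2.77 with flow cell run 1 only and −4.93 with run 2 only. The call was lost without TD139 mouse 2 (adjusted p = 0.0539 in edgeR) and held without each of the other 8 mice. Over all genes, 2455 were called lower with all mice, 759 without TD139 mouse 2, 867 without TD139 mouse 3 and 1286 without vehicle mouse 3. Casp8 fell to 55, 27 and 20 counts, with a log2 fold change of −1.45 (SE 0.40, adjusted p = 0.0181 in edgeR). Its call was lost without vehicle mouse 3 and without TD139 mouse 2 or 3, where the largest adjusted p was 0.0837. Casp4 had 2, 0 and 5 counts in TD139 mice, which overlapped the 4 to 32 counts of vehicle mice. In the fit without the filter its log2 fold change was −2.38 (SE 1.05, adjusted p = 0.115 in edgeR), which did not pass.

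Pycard had 22, 6 and 6 counts in TD139 mice and 38 to 84 in vehicle mice. Its log2 fold change was −2.12 (SE 0.74, adjusted p = 0.0483 in edgeR), close to the threshold. The call was lost without any 1 of 6 mice (naïve mouse 1, each vehicle mouse, and TD139 mouse 2 or 3), with an adjusted p of up to 0.175, in the fit without the filter (0.0670 in edgeR) and with flow cell run 1 only (0.118). The fold change was inside the cut-off of −2 without vehicle mouse 3 (−1.67), without TD139 mouse 2 (−1.79) or 3 (−1.85) and with run 1 only (−1.89), and it was −3.03 without TD139 mouse 1. Gsdmd had 51, 19 and 30 counts, below the 66 to 110 of vehicle mice. The log2 fold change was −1.23 (SE 0.39, adjusted p = 0.0320 in edgeR). It was lost without vehicle mouse 2 or 3 and without TD139 mouse 2 or 3, with an adjusted p of up to 0.119 in edgeR, and with flow cell run 2 only (−1.05, 0.0805).

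Il18 had 170, 160 and 137 counts in TD139 mice and 239 to 260 in vehicle mice, a narrow spread in both groups. The log2 fold change was −0.60 (SE 0.20, adjusted p = 0.0378 in edgeR). This call was lost without naïve mouse 2, without each vehicle mouse, and without TD139 mouse 2 or 3, with an adjusted p of up to 0.120 in edgeR, and with flow cell run 1 only (0.0790) or run 2 only (0.0578). When each mouse was corrected for transcript length and GC content, Il18 moved to −0.22 (adjusted p = 0.351 in edgeR) and Gsdmd to −0.78 (0.113). Pycard stayed at −2.19 but did not pass (0.0535), while Casp1 (−3.27, 0.0156) and Casp8 (−1.31, 0.0286) kept their calls.

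Aim2 was the tested member that was not called. It had 35, 42 and 19 counts in TD139 mice. These overlapped the 35 to 46 counts of vehicle mice, and the log2 fold change was −0.30 (SE 0.34, adjusted p = 0.516 in edgeR). Whether Aim2 responded differently from the called members was not tested. Nlrp3 had 9, 6 and 1 counts and Il1b 6, 0 and 3 counts, and both overlapped the vehicle mice. Two-sided exact permutation tests gave p = 0.3 for Nlrp3 and p = 0.7 for Il1b with 3 mice against 3. The 3 counts of Nlrc4 in TD139 mouse 3 were the only ones in the series, and all came from flow cell run 1.

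**Figure D2:**
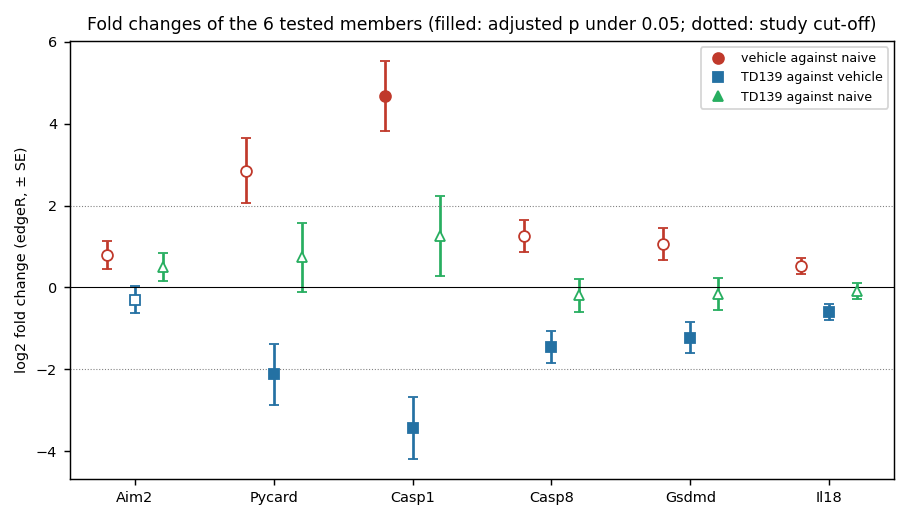
The log2 fold change and its standard error from edgeR for the 6 tested members in 3 comparisons, with filled symbols for an adjusted p-value under 0.05 and dotted lines at the cut-off of 2 and −2. Casp1 is filled in both comparisons with the vehicle mice, at 4.69 and −3.43, and Aim2 in none.

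**Figure D3:**
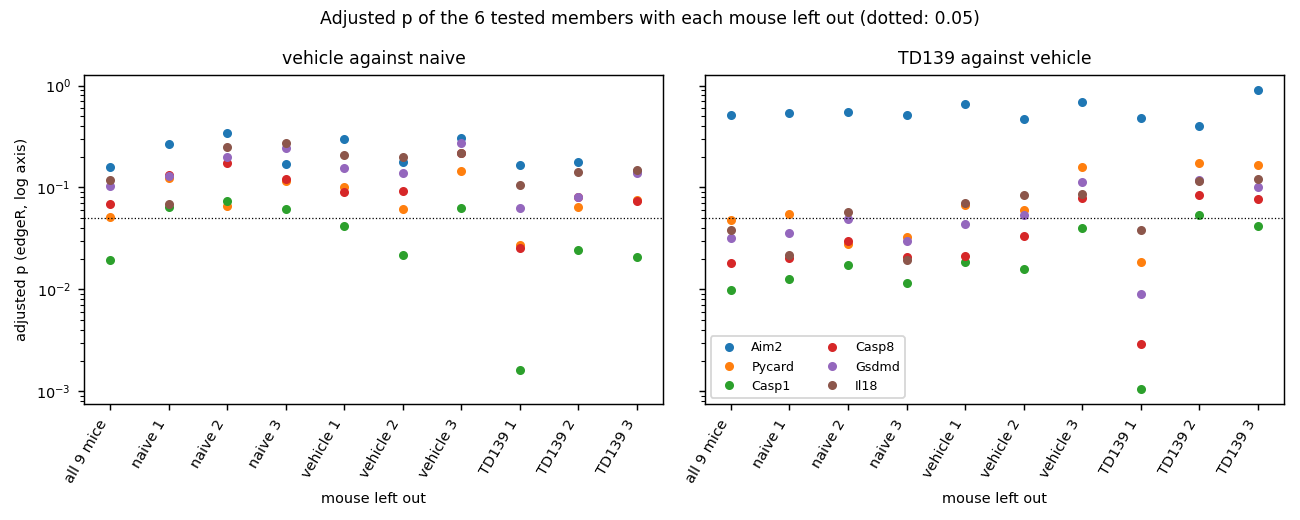
Adjusted p-value from edgeR (log axis) of the tested members with all 9 mice and with each mouse left out, for vehicle against naïve mice (left) and TD139 against vehicle mice (right), with a dotted line at 0.05. Without TD139 mouse 2 none of the members stays under the line in the right panel, and without TD139 mouse 1 Casp1 reaches 0.00105.

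Between TD139 and naïve mice, no member was called by edgeR. None of the 6 had an unadjusted p-value under 0.05, and DESeq2 called none of the 5 to which it gave an adjusted p-value (Pycard had none). Over all genes, 2.72% were called higher and 2.38% lower. The mice of both groups overlapped for all 10 members, while among all genes tested every TD139 mouse lay above every naïve mouse for 15.3% and below for 16.8%. The log2 fold changes were 1.26 (SE 0.98) for Casp1, 0.73 (0.84) for Pycard, 0.51 (0.35) for Aim2, −0.08 (0.20) for Il18, −0.16 (0.39) for Gsdmd and −0.19 (0.40) for Casp8, with adjusted p-values in edgeR of 0.360 to 0.821. For Casp1, 1 standard error is close to a doubling, so this comparison does not show that the TD139 mice were at the naïve level. Without TD139 mouse 1, the value for Casp1 turned to −0.42 and that for Pycard to −0.16. Casp4 had 7 counts against 2, a scaled ratio of 3.45 with an exact 95% counting interval of 0.657 to 34.0, and Il1b 9 against 2, a ratio of 4.43 with an interval of 0.918 to 42.2.

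Levels of different genes were compared per length, as CPM per kilobase of exon. Il18 was first in every group, with 5.92 ± 1.55 (SD, n = 3) in naïve, 8.50 ± 0.23 in vehicle and 5.59 ± 0.46 in TD139 mice. Casp1 held rank 5 of 10 in naïve mice at 0.067 ± 0.053 and rank 2 in vehicle mice at 1.80 ± 1.07, and was again at rank 5 in TD139 mice at 0.164 ± 0.202. The rank in TD139 mice is not resolved, since Casp1 had 16, 3 and 1 counts there and Pycard followed at 0.111 ± 0.090. In naïve mice, Gsdmd (0.587 ± 0.15) and Casp8 (0.497 ± 0.055) followed Il18 and did not differ beyond their spread. Aim2 came next at 0.235 ± 0.050. Casp1, Pycard (0.066 ± 0.081) and Nlrp3 (0.052 ± 0.009) were at 16 counts or fewer per mouse, and their order is not resolved, since the naïve Casp1 mean of 0.101 CPM lies below the floor. In vehicle mice, Casp1, Gsdmd (1.23 ± 0.29) and Casp8 (1.19 ± 0.45) overlapped, and Pycard (0.484 ± 0.224) and Aim2 (0.411 ± 0.050) overlapped too. Il1b and Casp4 were at 0.013 ± 0.011 and 0.007 ± 0.006 in naïve mice, close to or below the floor, whereas Il18 was well above it. The longest transcript in place of all exons raised Casp4 in vehicle mice from 0.128 to 0.251.

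**Figure D4:**
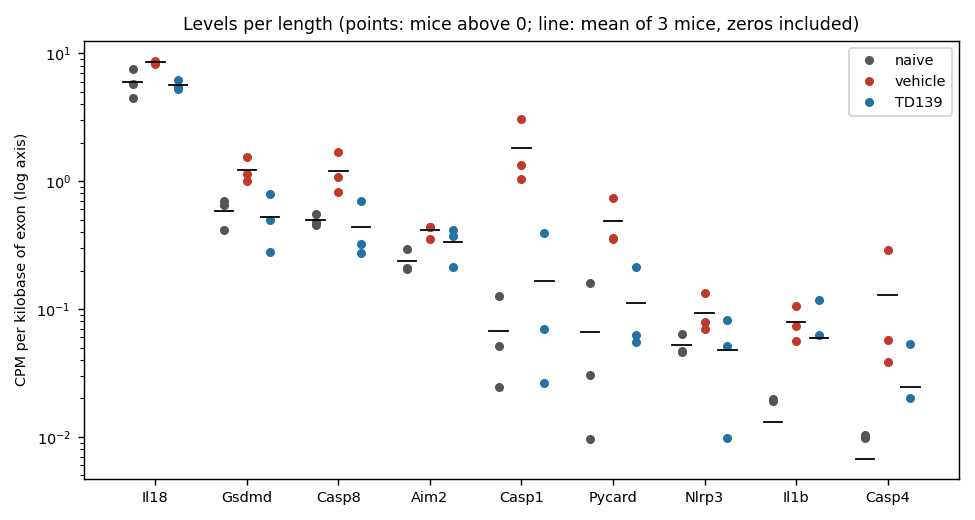
CPM per kilobase of exon (log axis) for 9 members, with points for mice with a count above 0 and lines for the mean of 3 mice. Il18 lies above all other members in each group, and Casp1 has means of 0.067 in the naïve and 1.80 in the vehicle group.

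Genes of microglia and macrophages moved with the members. Their 9 markers (Aif1, Cx3cr1, P2ry12, Tmem119, Csf1r, Itgam, Cd68, C1qa and Trem2) summed to 27.5 to 31.0 CPM in naïve, 141 to 270.3 in vehicle and 22.0 to 89.3 in TD139 mice. Of the 9 markers, 6 were called higher with light and 7 lower with TD139. The same mice stood out in both sets. Vehicle-treated mouse 3 had the highest marker sum and the highest value of its group for 5 of 6 tested members, and TD139 mouse 1 likewise for 5 of 6. The part of these cells in the differences of the members was not tested. Per 1000 CPM of the marker sum, Casp1 was at 1.20 to 6.86 CPM in naïve, 10.1 to 16.8 in vehicle and 1.80 to 6.64 in TD139 mice, and the vehicle mice did not overlap the others. The naïve values rest on 2, 5 and 1 counts of Casp1 and the TD139 values on 16, 3 and 1. All but the 16 are at or near the floor, so counting error there is large. On the same scale, Casp8, Gsdmd, Aim2, Il18 and Nlrp3 were lower in all vehicle than in all naïve mice. Il18, for example, was at 32.3 to 63.8 CPM against 149.5 to 250.6 CPM, and Casp8 at 11.9 to 22.0 against 42.2 to 52.6. Pycard was at 6.83 to 10.4 in vehicle mice, inside the 1.20 to 21.9 of naïve mice. These ratios are given as a description and were not tested. They depend on the genes summed. C1qa was the largest part of the sum in vehicle mice, at 58.4 to 126 CPM. The log2 fold changes with light were 3.31 for C1qa, 3.57 for Cd68 and 3.78 for Trem2, but 1.20 for P2ry12 and 1.31 for Tmem119. The remaining markers lay in between, and Casp8 was at 1.26.

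**Figure D5:**
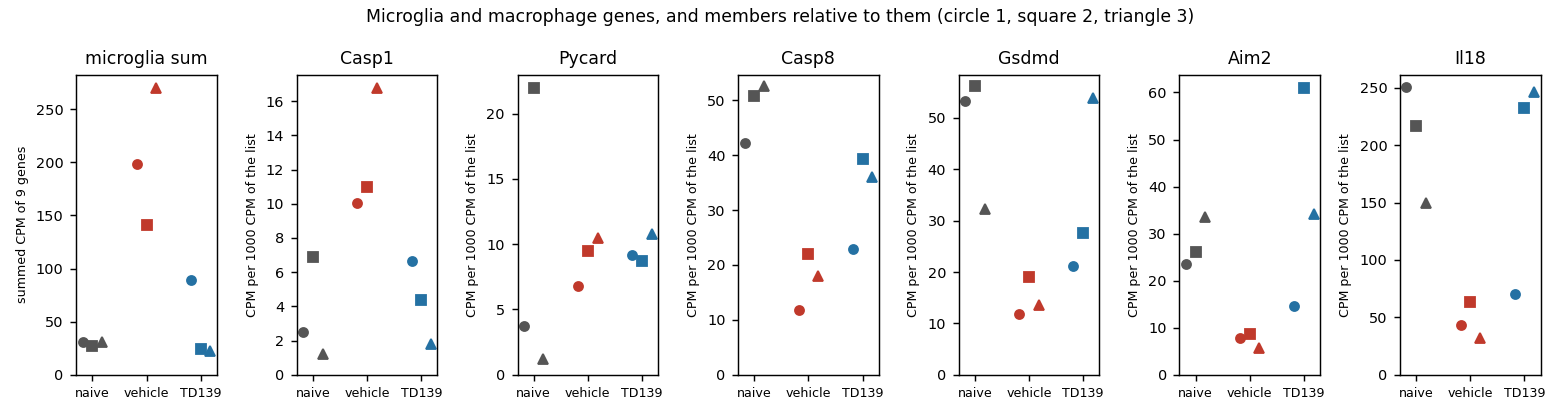
Summed CPM of 9 microglia and macrophage genes by mouse (left panel) and CPM of each tested member per 1000 CPM of that sum (other panels). Relative to the sum, Casp1 is higher in the 3 vehicle mice than in all others, while Casp8, Gsdmd, Aim2 and Il18 are lower in vehicle than in naïve mice. The sum in vehicle mice is weighted towards C1qa, and Casp1 rests on 16 counts or fewer in each naïve and TD139 mouse.

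Markers of other cell types were also summed. Neutrophil genes summed to 0.384 to 0.733 CPM in naïve, 2.36 to 2.96 in vehicle and 0.383 to 2.00 in TD139 mice. Csf3r, which microglia can express too, made up most of the sum in vehicle mice (2.11, 2.47 and 2.49 CPM). Of the 7 genes found it was the only one tested and was called higher with light. S100a8 had at most 11 counts in a mouse, and the other 5 at most 5. The 4 monocyte genes summed to 7.29 to 9.45, 8.90 to 15.7 and 6.12 to 8.10 CPM in the same order, most of it from Ly6c1, which endothelium also expresses and which was called lower with TD139 (−0.75, adjusted p = 0.0183 in edgeR). Plac8 had 74 counts in vehicle mouse 2 and at most 10 in any other mouse. There was no count of Ccr2 in naïve mice and 4, 9 and 0 in vehicle mice. Lymphocyte genes stayed at 0.883 to 1.81 CPM in all 9 mice, and 3 of 6 (the T cell and B cell markers Cd3e, Cd3g and Ms4a1) had no count. Retinal pigment epithelium genes ranged over 100 to 242, 208 to 433 and 120 to 173 CPM in the same order, overlapping between naïve and vehicle mice. All TD139 mice lay below all vehicle mice there, and Rpe65 (adjusted p = 0.0408 in edgeR) and Ttr (0.0491) were called lower with TD139. The 5 genes of Müller glia summed to 3121 to 3876, 3906 to 4445 and 3658 to 4119 CPM. Among them Gfap was called lower with TD139 (−2.96, adjusted p = 0.0182 in edgeR), and Slc1a3 (0.79, 0.0386) and Aqp4 (0.78, 0.0216) higher with light. With light, Gfap was at 89.6 to 321 CPM against 26.6 to 44.7 CPM in naïve mice but was not called (2.33, adjusted p = 0.0766 in edgeR). Aqp4 was also called higher in TD139 than in naïve mice (0.70, adjusted p = 0.0420 in edgeR). In the same order, the 4 genes of endothelium summed to 163 to 243, 312 to 458 and 212 to 443 CPM. Most of it came from Kdr, at 138 to 211 CPM in naïve and 277 to 428 CPM in vehicle mice. Pecam1, Cldn5 and Cdh5 differed little with light (log2 fold changes of −0.003, 0.17 and 0.22), and none of the 4 was called there. Cldn5 was called lower with TD139 (−0.71, adjusted p = 0.0191 in edgeR). The part of any of these cells in the members' differences was not tested.

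Other genes of the pathway were examined as lists. Among 17 further sensors, 9 were tested, and 2 were called higher with light and 2 lower with TD139. Over all genes the shares were 4.91% and 16.2%, as above, and they hold as background for each list here. Nlrc5, a regulator of MHC class I genes in the same receptor family, had 9 to 12 counts in naïve, 64 to 170 in vehicle and 8 to 27 in TD139 mice. It was called higher with light (log2 fold change 3.22, SE 0.49, adjusted p = 0.0127 in edgeR) and lower with TD139 (−2.77, 0.48, adjusted p = 0.00568), the latter moving to −3.46 without TD139 mouse 1. Naip2, a partner of Nlrc4 that binds parts of bacterial secretion systems, had no count in naïve mice, 17, 16 and 27 in vehicle and 12, 2 and 0 in TD139 mice. Against the floor of 3 counts per mouse it was at least 6.15-fold higher with light (adjusted p = 0.0298 in edgeR), and it entered the test through the vehicle mice alone. Naip2 has close copies in the mouse genome, so the split of reads between them is uncertain. Nlrx1, a mitochondrial member of the family, was called lower with TD139 (−0.81, SE 0.28, adjusted p = 0.0444 in edgeR).

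Of 11 further genes for gasdermins and membrane rupture, 4 were tested and 7 were too low, 4 of them without a count in any mouse. Ninj1, whose product breaks open the membrane late in lytic death, was the only one called. It had 261 to 303 counts in naïve, 543 to 748 in vehicle and 186 to 266 in TD139 mice. Its log2 fold change was 1.05 with light (SE 0.18, adjusted p = 0.0167 in edgeR) and −1.45 with TD139 (0.18, adjusted p = 0.00500). The second call held without each of the 9 mice. The first was lost without naïve mouse 1 or 2 or vehicle mouse 3.

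Of 5 other caspases, 4 were tested and none was called with light by edgeR, where 2 had an unadjusted p-value under 0.05. Their log2 fold changes were 0.09 for Casp9 (adjusted p = 0.623), −0.34 for Casp2 (0.164), 0.53 for Casp6 (0.160) and 0.91 for Casp12 (0.313). With TD139, Casp2, an initiator caspase, was called higher than in vehicle mice (0.53, SE 0.15, adjusted p = 0.0196 in edgeR), opposite in sign to Casp1 and Casp8. Casp12, a relative of Casp1 on chromosome 9, was called lower (−1.84, 0.61, adjusted p = 0.0391) on 1 to 15 counts per mouse.

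Of 14 genes that activate or restrain these pathways, 10 were tested. Ctsb, which codes for the lysosomal protease cathepsin B, was called higher with light (0.92, SE 0.15, adjusted p = 0.0134 in edgeR) and lower with TD139 (−0.86, 0.15, adjusted p = 0.00568). Nek7, a kinase that NLRP3 needs for assembly, was called higher with TD139 (0.47, 0.15, adjusted p = 0.0358). In the IL-1 family, 8 of 13 genes were tested. Il33, an alarmin of the family, was called higher with light (0.90, SE 0.23, adjusted p = 0.0456 in edgeR) and lower with TD139 (−0.75, 0.23, adjusted p = 0.0332). Myd88, the adaptor of the IL-1 and Toll-like receptors, was called higher with light (0.85, 0.23, adjusted p = 0.0447) and lower with TD139 (−0.96, 0.23, adjusted p = 0.0111). Irak3, a brake on the same signal, was called lower with TD139 (−1.63, 0.49, adjusted p = 0.0259), and its value was −2.31 without TD139 mouse 1. Against naïve mice, Il1rap, the shared chain of the receptors, was called higher in TD139 mice (0.78, 0.20, adjusted p = 0.0486), the only call of these lists in that comparison, and lost without 7 of the 9 mice in turn. Without naïve mouse 1 or 2, vehicle mouse 2 or TD139 mouse 2 or 3, no gene at all was called in that comparison. Each of these calls with light was lost without naïve mouse 2. With TD139, those of Nlrc5, Ninj1 and Ctsb held without each of the 9 mice and all others were lost without TD139 mouse 2 and without TD139 mouse 3. Calls over all genes fell too, from 2617 higher and 2455 lower against vehicle to 867 and 759 without TD139 mouse 2, and to 1050 and 867 without mouse 3.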

How the data were processed

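RNA of whole retinas from 9 mice was sequenced from stranded poly(A) libraries on 2 flow cells. Per the labels and the methods, the authors aligned and counted the reads with BaseSpace RNA Express and deposited, for each mouse and flow cell, the counts per gene symbol as whole numbers without scaling. The submitters' processing notes name the build mm10. Counts of both runs were summed, so the mouse is the replicate. Reads outside genes (16.5 to 22.8%) and ambiguous reads (0.303 to 0.471%) were left out.

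All 3 groups were fitted with edgeR 4.0.16 in R 4.3.3 (filterByExpr with its minimum count of 10, TMM, robust quasi-likelihood F test), which kept 15196 genes, and p-values were adjusted over these by the method of Benjamini and Hochberg. A gene was called at an adjusted p-value under 0.05. The standard error is the log2 fold change divided by the square root of F. Groups with 1 to 3 summed counts are given as ratios with exact counting intervals, and genes at 0 against a floor of 3 counts per mouse. Single values were compared with an exact two-sided permutation test, which cannot go below 0.1. Lengths and positions came from GENCODE M21 (GRCm38), which placed 98.53% of symbols.

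Every member is named. From the other pathway lists, up to 4 called genes with the highest mean count are named, or up to 4 tested ones where none was called. Some genes of the other lists are not reported here and were left out of the counts and sums. The members and lists were chosen with earlier results of these data known. The alternatives were DESeq2 1.42.0, RLE size factors, library size alone, no filter, only the groups compared, the replicate number as a block, single runs, an offset for length and GC content, the longest transcript, and each mouse left out. The steps were tested on simulated data.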

Additional observations from a re-analysis of the deposited data

How the results depend on the processing

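The number of members called higher with light was 1 and rose to 3 in DESeq2, in the fit of the 2 groups alone and with the length and GC offset, and to 2 with flow cell run 2 only. Leaving out 1 mouse gave 0 to 3. The number called lower with TD139 against vehicle was 5, and fell to 3 with flow cell run 1 only, to 3 with run 2 only and to 2 with the length and GC offset, and was 4 with no filter on low counts, without Pycard. Leaving out 1 mouse gave 0 to 5, with 0 without TD139 mouse 2, 1 (Casp1) without TD139 mouse 3 or vehicle mouse 3, and 2 without vehicle mouse 2. No gene at all was called between TD139 and naïve mice with the replicate block or with the length and GC offset. The same held without naïve mouse 1 or 2, vehicle mouse 2 or TD139 mouse 2 or 3. The fit of these 2 groups alone called 1 gene. Those settings therefore say little about the members. No member was called between TD139 and naïve mice under any of these settings, but 9 single values changed sign there. Casp1 turned to −0.64 with run 2 only, Casp8 to 0.22 with run 1 only, and Gsdmd to 0.095 and Il18 to 0.17 with the length and GC offset. Over the mice left out, this comparison gave −0.42 to 2.05 for Casp1, −0.16 to 2.42 for Pycard, −0.72 to 0.058 for Casp8, −0.59 to 0.15 for Gsdmd and −0.25 to 0.14 for Il18. The causes were not tested. No other fold change of a tested member changed sign.

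Mice with the same number did not deviate together, since their correlations ran from −0.26 to 0.29 and own numbers were the best match in 3 of 18 cases, so the numbers were not taken as pairs. With the replicate block, 1 member was called with light (Casp1) and 4 lower with TD139, Pycard being lost at an adjusted p of 0.0879 in edgeR. Library size alone shifted the median of all genes to −0.10 for TD139 against vehicle and left the 5 calls. In the fit of the TD139 and naïve groups alone, Casp1 and Pycard were not tested. Members below the count filter (Casp4, Nlrp3, Nlrc4 and Il1b) are limited by depth.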

Other observations

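Il1rn, which codes for the antagonist of the IL-1 receptor and was too low to be tested, had 1, 0 and 0 counts in naïve mice, 4, 10 and 1 counts in vehicle mice and no count in any TD139 mouse. Il1rn had its highest count in vehicle mouse 2, as did the monocyte gene Ccr2, whereas Casp1, Casp4, Pycard and Il1b had theirs in vehicle mouse 3 of that group.

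Reads of a mouse were split over 2 flow cells, and low members were split unevenly in places. Aim2 had 34 counts in run 1 and 9 in run 2 of vehicle mouse 1, against 15 and 31 in vehicle mouse 3. Pycard had 17 and 5 counts in TD139 mouse 1 and 12 and 4 in naïve mouse 2. Casp1 was even in the vehicle mice, with 28 and 28, 21 and 23, and 73 and 62 counts. Over all genes runs of the same mouse differed by a chi-square of 1.63 to 1.80 per degree of freedom, above the 1 of counting error alone.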
